A study of Mus musculus with 8 samples.

Results

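The effect of 25-hydroxycholesterol (25HC) on histone H4 acetylation in resting macrophages was read from 4 chromatin immunoprecipitation libraries, 2 from macrophages treated with 25HC and 2 from untreated macrophages, out of 8 libraries in the series. All libraries were made with a rabbit polyclonal antibody to acetylated histone H4 from bone marrow derived macrophages (BMDM), cells grown out of marrow in culture, of C57BL/6 mice. In each group 1 library came from mouse A and 1 from mouse B. The 4 libraries in question carried no stimulus (stimulation time 0, with no unit in the labels); the other 4 had been stimulated with PAM3CSK4 (PAM3), a lipopeptide agonist of TLR2, alone or after 25HC (stimulation time 18). The sources used here give neither the dose of 25HC nor how long the cells were kept in it. With 2 mice per group the p-values below measure the spread between these libraries, and a shorter peak in a bulk library cannot be told apart from fewer cells carrying it.

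25HC is an oxysterol that macrophages make from cholesterol with the enzyme CH25H, which interferon and Toll-like receptor signals induce. Inside the cell it activates the liver X receptors (LXR), which turn on cholesterol efflux genes, and it binds INSIG proteins, which keeps the SREBP factors that drive sterol synthesis in the endoplasmic reticulum. In macrophages it is also known to promote cholesterol ester storage and, at high levels, the integrated stress response. Acetylated H4 marks active promoters and enhancers.

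The untreated libraries held 50847 and 52311 peaks (mouse A and B) that covered 68.4 and 65.4 Mb, and the 25HC libraries held 48446 and 50079 peaks over 59.9 and 64.6 Mb. Both 25HC libraries therefore covered less of the genome than either untreated library, with a difference of means of −4.64 Mb (62.3 ± 3.35 against 66.9 ± 2.15 Mb, SD, n = 2; exact two-sided permutation p = 0.333, the smallest that 2 against 2 can give). The files used here hold peaks and no read counts, so depth is unknown. Macrophage marker genes carried peaks. Of 28 macrophage marker genes, 27 had a peak in each of the 4 libraries, and only the scavenger receptor Marco had none. A peak in the gene window defined below was common, and does not by itself show the identity of the cells. Of 21887 protein-coding genes 12803 had one in all 8 libraries, and of 15 dendritic cell markers only 1 was at 0 in each resting library. The 2 groups were also close to each other as a whole: the share of covered bases common to a pair of libraries was 0.670 for the untreated mice and 0.667 for the 25HC mice, and lay between 0.645 and 0.666 for the 4 pairs of 1 untreated and 1 25HC library.

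At 4 of the 5 genes that passed the test below, the groups differed mainly at a single promoter. At 2 sterol genes the edge of a peak moved across the start. These 6 promoters, of the gene itself or of a neighbour, are shown. At Camkv, shorter peaks at its own start differed too. For each, the 250 bases before the start of transcription are shown 5′ to 3′ on the gene's own strand, from RefSeq (GRCm38.p6). Capitals mark a match to one of 8 searched motifs, and lower case marks all other bases. The motifs were PU.1 (GAGGAAGT), ETS (ACTTCCGG), AP-1 (TGANTCA), CRE (TGACGTCA), C/EBP-ATF (TGATGNAAT), the sterol regulatory element core (TCACNCCAC), the nuclear receptor half-site (AGGTCA) and SP1 (GGGCGG), each on both strands. The first 4 promoters were under a peak in both untreated libraries and not with 25HC, and the last 2 were under a peak in both 25HC libraries and not in untreated cells. All 6 were under a peak in each of the 4 PAM3-stimulated libraries.
Pycard, chr7:127993868-127994117, minus strand: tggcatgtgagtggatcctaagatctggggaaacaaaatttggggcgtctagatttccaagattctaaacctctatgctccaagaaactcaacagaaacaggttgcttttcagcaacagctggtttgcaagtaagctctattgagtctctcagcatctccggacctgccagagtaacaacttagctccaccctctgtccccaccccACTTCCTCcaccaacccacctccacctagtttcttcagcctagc
Ap1g2, chr14:55106594-55106843, minus strand: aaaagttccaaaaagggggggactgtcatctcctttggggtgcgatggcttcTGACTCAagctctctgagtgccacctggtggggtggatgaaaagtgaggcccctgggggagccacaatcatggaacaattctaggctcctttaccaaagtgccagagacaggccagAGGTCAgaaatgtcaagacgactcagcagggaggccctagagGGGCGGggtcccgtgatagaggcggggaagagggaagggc
Traip, chr9:107950713-107950962, plus strand: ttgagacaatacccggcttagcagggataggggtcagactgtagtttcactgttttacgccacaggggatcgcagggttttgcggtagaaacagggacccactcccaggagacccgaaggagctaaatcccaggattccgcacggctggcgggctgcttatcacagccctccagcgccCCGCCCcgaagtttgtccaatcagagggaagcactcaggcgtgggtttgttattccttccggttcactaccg
Mylip, chr13:45389492-45389741, plus strand: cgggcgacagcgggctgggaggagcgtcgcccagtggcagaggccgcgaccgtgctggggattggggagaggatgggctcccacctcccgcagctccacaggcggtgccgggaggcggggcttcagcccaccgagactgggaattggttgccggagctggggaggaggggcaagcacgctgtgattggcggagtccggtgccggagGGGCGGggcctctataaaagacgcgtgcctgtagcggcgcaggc
Rab29, chr1:131867027-131867276, plus strand: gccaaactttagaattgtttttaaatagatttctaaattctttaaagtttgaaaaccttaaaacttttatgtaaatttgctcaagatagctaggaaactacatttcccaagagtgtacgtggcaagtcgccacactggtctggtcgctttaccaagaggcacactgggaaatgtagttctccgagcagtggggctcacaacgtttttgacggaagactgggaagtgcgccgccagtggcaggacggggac
Soat1, chr1:156474329-156474578, minus strand: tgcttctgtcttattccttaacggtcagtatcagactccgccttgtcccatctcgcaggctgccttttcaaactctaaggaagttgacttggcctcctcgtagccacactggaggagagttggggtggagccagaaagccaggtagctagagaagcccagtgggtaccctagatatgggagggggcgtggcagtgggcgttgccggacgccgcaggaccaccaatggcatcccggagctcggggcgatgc
The Pycard promoter holds 1 PU.1 match, on the opposite strand, starting 44 bases before the start. The Ap1g2 promoter holds an AP-1 match, a nuclear receptor half-site and an SP1 match, starting 198, 82 and 40 bases before the start. Traip and Mylip hold 1 SP1 match each, 72 and 44 bases before the start. Rab29 and Soat1 hold none of the 8 motifs in these bases. These are matches of letters, not measured binding sites.

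**Figure D1:**
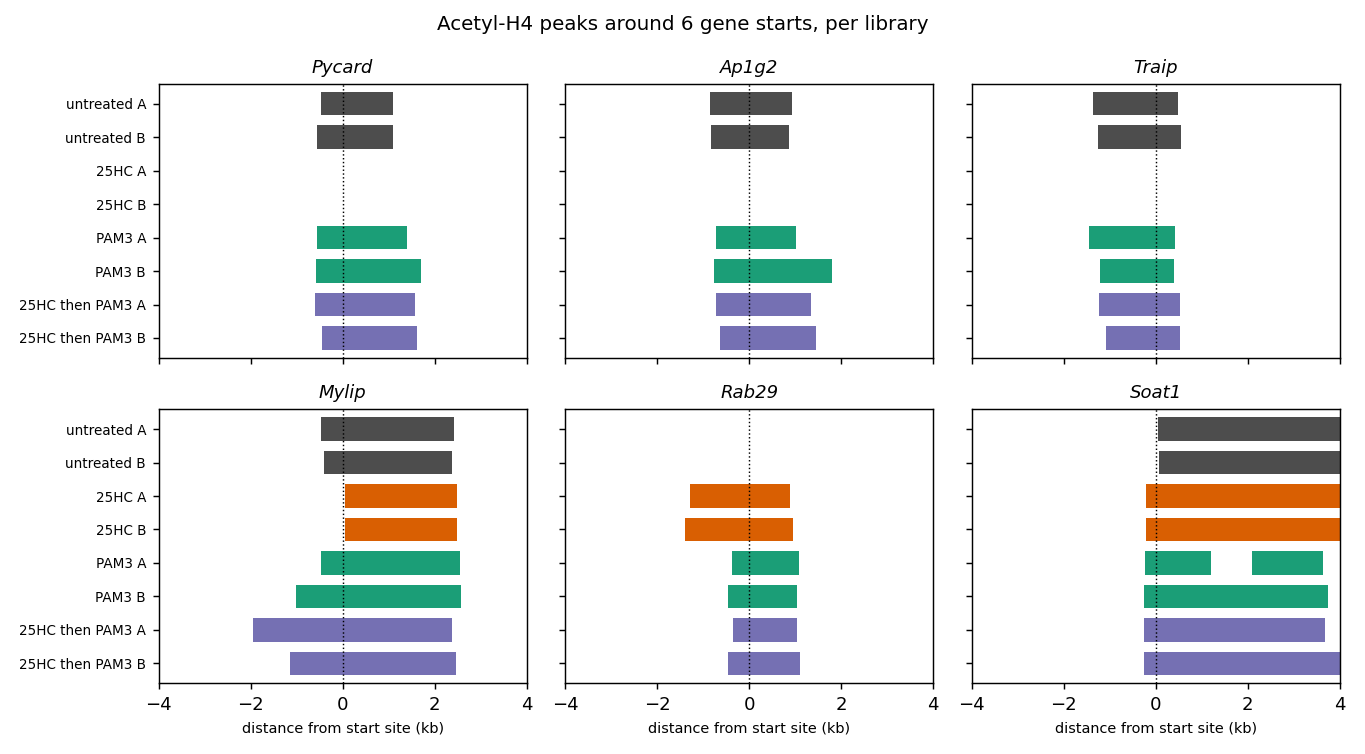
Each bar is an acetyl-H4 peak of 1 library within 4 kb of the start site of the named gene; the x axis is the distance from the start in kb along the gene's strand, and the 8 rows are the libraries. Peaks at Pycard, Ap1g2 and Traip are missing in both 25HC libraries and the peak at Rab29 in both untreated libraries, while at Mylip and Soat1 only the edge of the peak moves across the start.

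For the test across genes, the value was the number of bases under peaks, the called length, in the gene body extended by 5 kb at each end. Of 14589 protein-coding genes tested with limma and Benjamini-Hochberg adjustment at 0.05, 1 rose with 25HC (0.00685% of those tested) and 4 fell (0.0274%). At an unadjusted p under 0.05 there were 678 genes (4.65%), 277 higher and 401 lower with 25HC. The gene that rose was Rab29, and those that fell were Pycard, Jph4, Camkv and Myo1h. None of the 5 passed with the mouse as a block, where the smallest adjusted p over all genes was 0.140, or with a fit on the 4 resting libraries alone, where it was 0.647. None passed without the 25HC library of mouse B or without any 1 of the 4 PAM3-stimulated libraries (adjusted p of Pycard, Jph4, Camkv, Myo1h and Rab29 from 0.0674 to 0.153), while 48 or 92 genes rose without untreated mouse A or B, and 51 fell without 25HC mouse A.

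Pycard encodes ASC, the adaptor that links inflammasome sensors to caspase-1 (chr7:127991373-127993867, GRCm38). Its called length was 1555 and 1656 bp in untreated cells of mouse A and B and 0 in both 25HC libraries. It was 1954 and 2281 bp with PAM3, and 2178 and 2078 bp with 25HC then PAM3. The 2 resting groups did not overlap, and the 25HC libraries were the only ones of the 8 with no peak in the window. In untreated cells a single peak made up the whole value and ran from −464 to 1090 bp relative to the start in mouse A, and from −555 to 1100 bp in mouse B. The fall gave an adjusted p of 0.0257 in limma, and 0.140 with the mouse as a block.

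Jph4 encodes a junctophilin, a protein that ties the endoplasmic reticulum to the plasma membrane in neurons (chr14:55106826-55116935). Its window held 1789 and 1697 bp of peaks in untreated cells and none in either 25HC library, against 3325 to 4108 bp in the 4 PAM3-stimulated libraries (adjusted p = 0.0188 in limma, 0.140 with the block). The peak that was missing lay over the start of the neighbouring gene Ap1g2, not of Jph4. In the 4 PAM3-stimulated libraries that peak measured 1729 to 2558 bp. The rest of their length was a second peak of 1480 to 1973 bp, nearest to the start of Jph4, which no resting library held. Ap1g2 encodes a gamma subunit of the AP-1 clathrin adaptor, which sorts cargo at the Golgi and endosomes. Its own window held 3461 and 3306 bp in untreated and 220 and 0 bp in 25HC libraries and did not pass (adjusted p = 0.124, 0.260 with the block), and its 300-base promoter was covered whole in both untreated libraries and not at all with 25HC.

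Camkv, which encodes a calmodulin-binding pseudokinase of neurons (chr9:107935851-107949691), held 2123 and 2407 bp untreated and 0 in both 25HC libraries (adjusted p = 0.0372 in limma, 0.174 with the block). The 4 PAM3-stimulated libraries held between 1614 and 1862 bp. Most of the untreated length was again a neighbour's promoter: peaks of 1841 and 1816 bp lay over the start of Traip, which encodes a ubiquitin ligase of DNA replication and repair. Short peaks of 282 and 591 bp lay at the start of Camkv itself, and these too were missing with 25HC. Unlike the peaks at Traip, they were also missing in the 4 PAM3-stimulated libraries.

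Myo1h, an unconventional class I myosin (chr5:114289253-114364576), kept part of its peaks. Its called length was 2929 and 3182 bp untreated and 665 and 806 bp with 25HC, a log2 difference of −1.46 ± 0.10 (SE) on the scale of log2(called length + 500 bp) (adjusted p = 0.0257, 0.140 with the block). The single peak in each 25HC library lay at 1 of the 2 annotated starts of the gene. Peaks centred 25954 bp (mouse A) and 25949 bp (mouse B) from the other start, and 33220 and 33297 bp from the start under the 25HC peak, were held by both untreated libraries and not called with 25HC. With PAM3 the window held 2415 and 2900 bp, and with 25HC then PAM3 2277 and 2428 bp.

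Rab29 encodes a small GTPase of the Golgi and lysosome that recruits the kinase LRRK2 (chr1:131867210-131872887). Its called length was 0 in both untreated libraries and 2195 and 2361 bp with 25HC. The peak ran from −1298 to 896 bp relative to the start in mouse A and from −1402 to 958 bp in mouse B. The PAM3 libraries held 1466 and 1518 bp and the libraries with 25HC then PAM3 held 1399 and 1559 bp, so the untreated libraries were the only ones with no peak at Rab29. The rise gave an adjusted p of 0.0188 in limma, and 0.140 with the block.

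**Figure D2:**
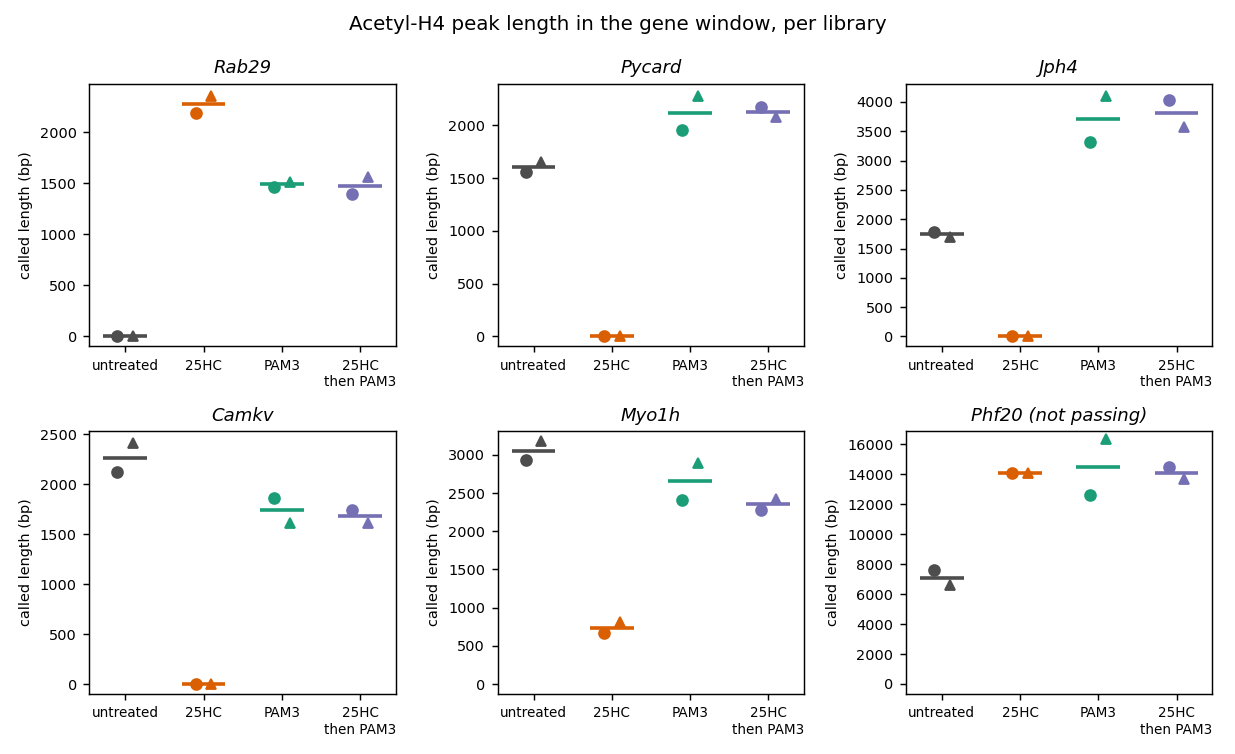
Called length in bp (y axis) in the window of the 5 genes that passed the test and of Phf20, the not passing gene with the largest called length among the rises; circles are mouse A, triangles mouse B and bars the mean of the 2. Rab29 is at 0 in untreated cells alone, and Pycard, Jph4 and Camkv are at 0 with 25HC alone.

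Every group had windows without a peak that all other libraries called. Windows at 0 in both untreated libraries and called in the other 6 numbered 18, the same as those at 0 in both 25HC libraries alone; the corresponding numbers were 44 for PAM3 and 63 for 25HC then PAM3. Windows at 0 in 1 library alone numbered between 70 and 256 per library, and 12803 windows were called in all 8. Between 25HC then PAM3 and PAM3 the 5 genes differed by between −0.15 (Myo1h) and 0.03 (Jph4) on the log2 scale, with the smallest adjusted p at 0.550 (Myo1h). The difference between the effect of 25HC in resting and in PAM3-stimulated cells was tested for all genes, and none passed; 1438 genes had an unadjusted interaction p under 0.05, and the smallest adjusted p, 0.0734, was shared by the 5 genes. For comparison, 97 genes rose (0.665%) and 93 fell (0.637%) with 25HC then PAM3 against PAM3, a comparison that shares no library with that of the resting cells but was fitted in the same model.

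The remaining genes ranked by smallest p did not pass. Among those higher with 25HC (adjusted p from 0.124 to 0.219, and from 0.174 to 0.563 with the block), Phf20, a reader protein of the NSL complex that acetylates histone H4, had 7618 and 6585 bp untreated and 14107 and 14079 bp with 25HC. Its promoter carried a peak of 2759 and 2923 bp in the 25HC libraries and none in the untreated ones. Prc1, a microtubule crosslinker of cell division, had 898 and 431 bp against 3424 and 4595 bp. Tmem178, a membrane protein of the endoplasmic reticulum, had 0 and 429 bp against 4663 and 5451 bp. Tmem181a, a transmembrane protein gene, had 0 bp in both untreated libraries and 1187 and 1219 bp with 25HC, next to 1173 to 1210 bp in the 4 PAM3-stimulated libraries. Nynrin, Fam160b2, Zfp618, Pdzd11 and Zfp790 completed the set. In all 9 genes both 25HC libraries lay above both untreated ones, which was true of 1455 genes in all (9.97%).

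Among those lower with 25HC (adjusted p from 0.122 to 0.179, and from 0.260 to 0.517 with the block), Atxn2l, which encodes a stress granule protein, had 3356 and 3478 bp untreated and 1237 and 1178 bp with 25HC. The peak of 2187 and 2262 bp over its promoters was missing with 25HC, while a peak at the neighbouring Tufm stayed at 1359 to 1449 bp in all 4 libraries. Fgfr1, a receptor for fibroblast growth factors, had 2756 and 2813 bp against 278 and 0 bp, and Snx25, a sorting nexin, had 9280 and 7961 bp against 3954 and 3796 bp. Adat1, a tRNA deaminase, and Zfp867, a zinc finger gene, had between 1016 and 1239 bp untreated and none with 25HC. In all 6 genes, Ap1g2 included, both 25HC libraries lay below both untreated ones, as they did for 4053 genes (27.8%); these counts are on called length as deposited, and the 25HC libraries covered less in total.

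The best known sterol-responsive genes showed no change that passed. Of 26 genes chosen for their place in oxysterol, stress and cytokine biology, the smallest unadjusted p was 0.0860, for Srebf1, and none had an adjusted p under 0.999968. Nr1h3, which encodes LXRα, had 7886 and 7826 bp untreated and 7698 and 8115 bp with 25HC. Srebf1, an LXR target that encodes the lipogenic factor SREBP1, had 3997 and 3200 bp against 4016 and 5495 bp (log2 difference 0.41 ± 0.20, SE), and its 3 promoters were called in all 4 libraries. In the efflux transporters the mice differed in opposite directions, lower with 25HC in mouse A and higher in mouse B. Abca1 had 15463 and 12705 bp against 9690 and 13413 bp, and Abcg1 had 8135 and 7525 bp against 6946 and 7870 bp. Apoe, the apolipoprotein that accepts cholesterol, had 6798 and 6850 bp against 5179 and 6368 bp, the only one of these genes in which both 25HC libraries lay below both untreated ones.

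Mylip, an LXR target that encodes a ubiquitin ligase, had nearly the same called length in both groups (3118 and 2775 bp untreated, 3390 and 2548 bp with 25HC), but the peak began at another place. In untreated cells it began at −463 and −396 bp relative to the start and covered the promoter. With 25HC it began 45 and 40 bp after the start, so that 5 and 10 of the 300 promoter bases were covered. Lpcat3, a phospholipid remodelling enzyme, had 5449 and 3873 bp against 2890 and 5883 bp, and Scd2, a desaturase, had 2387 and 535 bp against 1805 and 2114 bp. In both genes the 2 mice differed in opposite directions.

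No gene of sterol synthesis and uptake, which SREBP2 drives, passed either. Sqle, squalene epoxidase, had 2171 and 1953 bp untreated and 2044 and 2211 bp with 25HC, and Insig1, the retention protein of the SREBP complex, had 1402 and 1444 bp against 1805 and 1418 bp with 25HC.

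The enzymes that make, clear and store oxysterols gave a mixed picture. Ch25h, which makes 25HC, had no peak in the untreated library of mouse A, 1861 bp in that of mouse B, and 2271 and 1826 bp with 25HC. Cyp7b1, which hydroxylates 25HC for clearance, stayed between 934 and 1050 bp in all 4 libraries. Plin2, a coat protein of lipid droplets, had 7421 and 6031 bp against 5369 and 6535 bp. Soat1, which esterifies cholesterol for storage, had 8781 and 10842 bp against 9492 and 12242 bp, and was the mirror image of Mylip at its promoter. Its first peak began 58 and 77 bp after the start in untreated cells, leaving the 300-base window before and around the start at 0, and at −213 and −208 bp with 25HC, which covered 263 and 258 bases of it. In all 4 libraries that peak reached from 6627 to 6701 bp after the start.

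**Figure D3:**
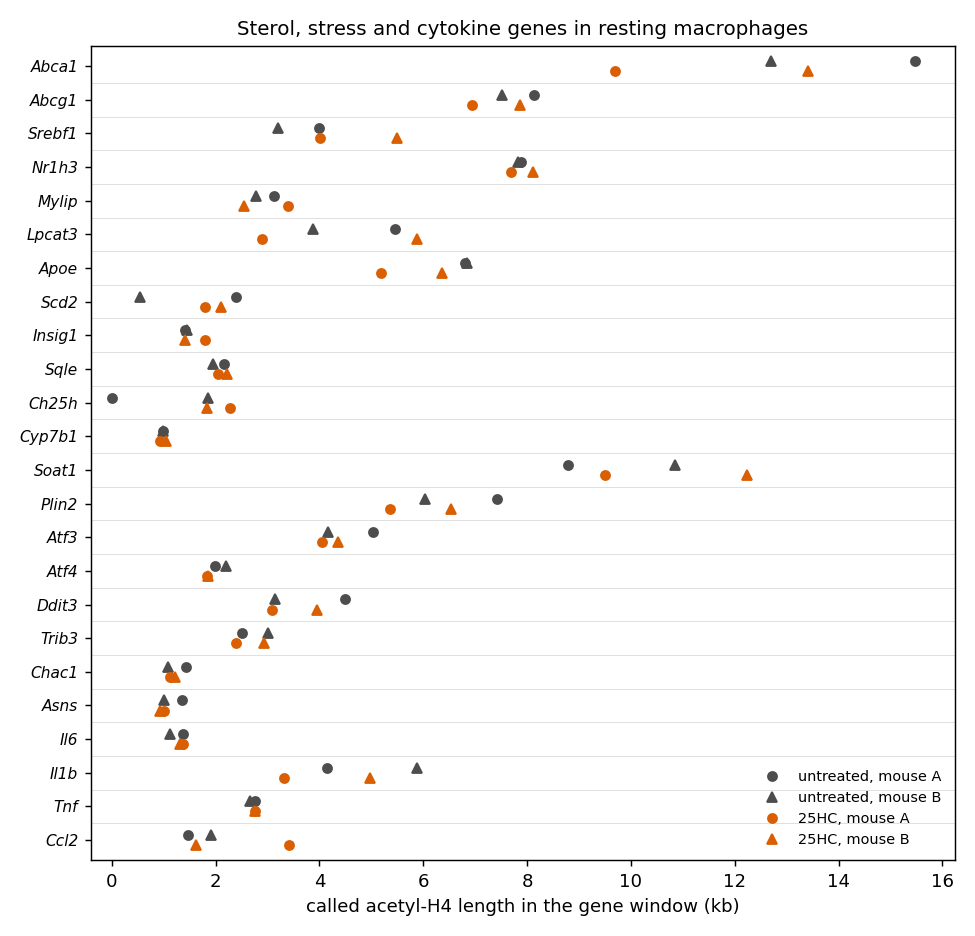
Called length in kb (x axis) in the windows of 24 sterol, stress and cytokine genes (y axis), with grey for untreated and orange for 25HC, circles for mouse A and triangles for mouse B. Apoe and Atf4 are lower in both 25HC libraries than in both untreated ones, and Ch25h is at 0 in 1 untreated library.

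None of the genes of the integrated stress response passed. Atf4, its central transcription factor, had 1988 and 2195 bp untreated and 1834 and 1862 bp with 25HC. Atf3, a stress factor that limits Toll-like receptor responses, had 5025 and 4158 bp against 4058 and 4351 bp. The ATF4 targets Ddit3, Trib3, Chac1 and Asns differed by between −0.12 and 0.02 on the log2 scale, less than the SE of each. Among cytokines, Tnf had 2756 and 2665 bp against 2766 and 2761 bp, and Il6 had 1376 and 1130 bp against 1369 and 1324 bp. Il1b had 4146 and 5887 bp against 3318 and 4984 bp, and Ccl2 had 1463 and 1903 bp against 3411 and 1615 bp, with the 2 mice in opposite directions.

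None of 16 gene lists had a member that passed. The median log2 difference over all 14589 genes was 0.01, and 7837 of them (positive) stood against 6752 (negative). The 25 tested LXR genes and targets had a median of 0.01 (13 positive, 12 negative), the 32 genes of sterol synthesis and SREBP targets −0.02 (15 and 17), the 27 genes of oxysterol handling and lipid storage −0.03 (13 and 14), and the 32 genes of the stress responses −0.01 (14 and 18). AP-1 and immediate-early genes had a median of 0.06 (16 of 24 positive), cytokines and chemokines 0.08 (18 of 32) and interferon-stimulated genes 0.00 (17 of 34). On called length as deposited, both 25HC libraries lay below both untreated ones for 9 of the 25 LXR genes and 12 of the 32 sterol genes, against 27.8% of all genes tested.

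Within these lists the members of smallest p did not pass. Cd5l, an LXR target that keeps macrophages alive, had 7682 and 8321 bp untreated and 3693 and 5357 bp with 25HC (log2 difference −0.72 ± 0.20, SE; adjusted p = 0.796 in limma). Scd1, the desaturase induced by LXR and SREBP1, had 2798 and 1517 bp against 3245 and 3731 bp. Acat2, a thiolase at the entry to sterol synthesis, had 4857 and 3118 bp against 2460 and 2430 bp, and Hilpda, a lipid droplet protein that inhibits lipolysis, had 3154 and 2409 bp against 1447 and 1776 bp. Edem1, a factor of protein degradation from the endoplasmic reticulum, had 5722 and 5753 bp against 4622 and 4300 bp. Fosl2, an AP-1 subunit, had 4234 and 5338 bp against 2531 and 3436 bp. The chemokine gene Cxcl2 had 1826 and 2456 bp against 1076 and 1353 bp, while Ccl7 had 2382 and 1756 bp against 2961 and 2640 bp. Gbp3, an interferon-induced GTPase, had 3781 and 3511 bp against 2460 and 2480 bp. Il12a, which encodes the p35 subunit of interleukin-12, had a short peak of 380 and 356 bp untreated and none with 25HC.

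Marker genes of other cells carried peaks too. The summed length of neutrophil and of dendritic cell markers was lower in both 25HC libraries than in both untreated ones. That of the other marker lists overlapped between groups. The sum over all genes tested was lower too, with 58994.5 and 56947.4 kb untreated against 52381.2 and 56392.2 kb with 25HC. So were the sums of the sterol synthesis and housekeeping lists. Neutrophil markers summed to 25.9 and 23.0 kb untreated against 21.3 and 21.2 kb; 6 or 7 of 14 were at 0 in each library, Ly6g and S100a9 among them, while Elane (2705 to 3524 bp) and Ltf (4372 to 5022 bp) had peaks in all 4. Dendritic cell markers summed to 98.4 and 97.5 kb against 83.7 and 93.6 kb, with 1 of 15 at 0. Lymphocyte markers summed to 17.8 and 28.3 kb against 23.0 and 28.2 kb, with 6 or 7 of 17 at 0. Cd3e, Cd8a and Pax5 were at 0 in all 4 libraries and Cd79b in untreated mouse A alone, while Cd3d (1690 to 1788 bp) and Cd79a (1503 to 1558 bp) had peaks in all 4. Fibroblast and endothelial markers summed to 36.2 and 33.1 kb against 29.6 and 33.8 kb, with 7 to 9 of 14 at 0, Col1a2, Col3a1 and Tek in all 4 libraries. Pdgfra, a receptor for platelet-derived growth factor on fibroblasts, had 1901 and 2748 bp untreated and 381 and 0 bp with 25HC (adjusted p = 0.929 in limma). Their part in the other differences was not tested. Macrophage markers summed to 208.1 and 192.1 kb against 179.3 and 199.97 kb, and Adgre1, which encodes F4/80, was higher in both 25HC libraries (4242 and 5210 bp) than in the untreated ones (3247 and 4010 bp; adjusted p = 0.961).

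**Figure D4:**
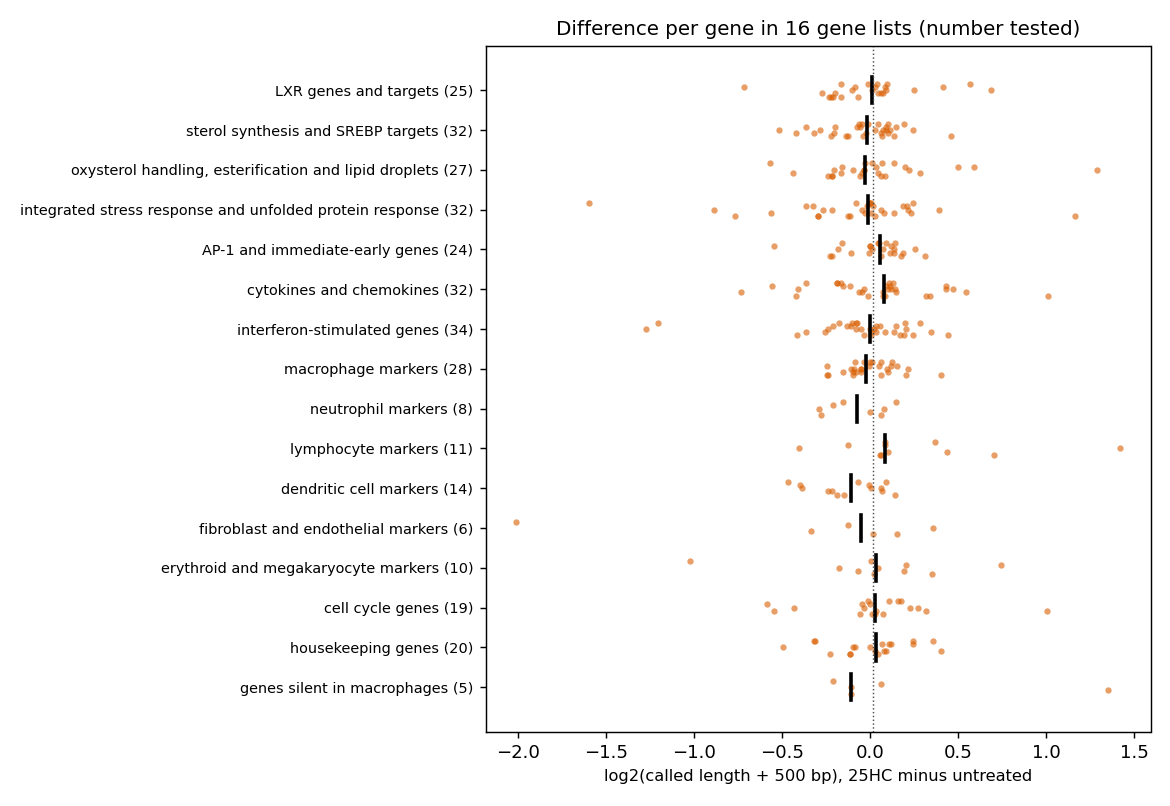
Each point is 1 gene of a list and the x axis its log2 difference in called length (with 500 bp added), 25HC minus untreated; black bars are list medians, the dotted line is the median over all genes tested, and the number of genes tested stands after each list's name. All 16 medians lie between −0.11 and 0.08.

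Promoters were then read one by one, as the 300 bases from 250 before to 50 after each RefSeq start, called where at least 150 bases lay under a peak. Of 11482 promoters called in at least 1 of the 4 resting libraries, 76 (0.662%) were called in both 25HC libraries and neither untreated one, and 119 (1.04%) the reverse. These are called gained and lost below. Some of the calls rest on small differences around the cut of 150 bases. The gained promoter of Slc25a38 held 144 and 130 bases untreated and 151 and 152 with 25HC, and the lost one of Zfp418 170 and 158 against 148 and 138. In the lists, Mylip was the only lost promoter among the LXR genes (25 promoters) and Soat1 the only gained one among the oxysterol and storage genes (26 promoters). The promoters of Il12a and of Ifit2, an interferon-induced antiviral gene with 2 annotated starts, were lost. None of the 30 promoters of sterol synthesis genes and none of the 34 of stress genes was gained or lost. These list counts are of all annotated promoters, unlike the base of 11482. Called in at least 1 resting library were 21 of the LXR genes and 17 of the oxysterol and storage genes. For sterol synthesis and stress genes these numbers were 27 and 29.

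Of the gained promoters 34.2%, and of the lost ones 16.8%, were called in all 4 PAM3-stimulated libraries, and 14.5% and 23.5% in none of them. Over all 11482 promoters these shares were 76.9% and 4.28%. Some immune genes stood among the changed promoters, and were picked out after their values were seen. Itgax, which encodes CD11c, had no promoter base covered in untreated cells and all 300 in both 25HC libraries and all 4 PAM3-stimulated ones. The promoters of Cfd (complement factor D), Clec1b (the lectin CLEC-2) and Gata2 (a haematopoietic transcription factor) were covered whole in both untreated libraries and not at all in the other 6. An SP1 match stood in 65.8% of gained, 60.5% of lost and 66.5% of all called promoters, and a nuclear receptor half-site in 7.89%, 10.9% and 11.1%. An ETS match stood in 2 gained (2.63%) and 4 lost promoters (3.36%). It stood in 8.87% of those called in at least 1 of the 4 libraries and 9.80% of those called in all 4. The sterol regulatory element core stood in 0% of gained, 3.36% of lost (4 promoters) and 1.13% of all called promoters. For AP-1 the shares were 6.58%, 7.56% and 4.68%, and for CRE 0%, 0.84% and 3.33%. For PU.1 they were 5.26%, 3.36% and 3.38%, and for C/EBP-ATF 0%, 0% and 0.409%. None of these shares was tested.

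Across the genome, the same comparison was made on 1 kb bins of chromosomes 1 to 19, called where at least 500 bp lay under a peak. Of 84726 bins called in at least 1 resting library, 1484 (1.75%) were gained with 25HC, in both mice and in neither untreated library, and 3126 (3.69%) were lost. Within mouse A alone 8659 bins were gained and 17031 lost, and within mouse B 11786 and 12083. Bins gained in A and lost in B numbered 1119, and bins lost in A and gained in B 2421. Losses outnumbered gains mainly in mouse A, whose 25HC library covered the fewest bases of the 4. Without that library 6587 bins were gained and 5784 lost, so the balance turned, while without any of the other 3 the lost bins remained more (7595 to 10141 lost against 3830 to 5194 gained).

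Most runs were short. The gained bins formed 1398 runs, 1321 of them a single bin, and the lost bins formed 2967, 2815 of them a single bin. In 1030 of the 1484 gained and 2257 of the 3126 lost bins the other group was partly covered. Start sites were scarce in both sets: 8.17% of gained and 6.51% of lost bins lay within 1 kb of a start. The shares were 17.4% of bins called in any resting library and 27.7% of those called in all 4. All of these shares are of bins on chromosomes with annotated starts, 1444 of the gained and 3025 of the lost bins. Starts were at hand for 17492 of the 21887 protein-coding genes.

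The longest gained run, 4000 bp at Tmem171 (chr13:98691001-98695000), was uncovered in both untreated libraries and held 3628 and 3581 bp of peaks with 25HC. It was called in both PAM3 libraries (2631 and 3599 bp) but, with 25HC then PAM3, only in mouse B (0 and 3611 bp). A run of the same length lay over the start of Ehbp1l1, which encodes an adaptor of membrane traffic (chr19:5724001-5728000): 0 in both untreated libraries, 3460 and 3677 bp with 25HC, and 2349 to 2694 bp in the 4 PAM3-stimulated libraries. The next were 3000 bp each, at Rragc, a GTPase that couples amino acids to mTORC1 (chr4:123927001-123930000), at the Phf20 promoter (chr2:156196001-156199000), and outside any protein-coding gene at chr11:109908001-109911000.

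The longest lost runs were 3000 bp each. They lay at Nxpe4 (chr9:48373001-48376000; 2845 and 2541 bp untreated, 0 and 292 bp with 25HC) and at Stau1, which encodes an RNA-binding protein (chr2:166977001-166980000; 2903 and 2803 bp against 355 and 360 bp). The others lay outside protein-coding genes, the only genes compared, nearest to App (chr16:85284001-85287000), Adam6b (chr12:113482001-113485000) and Tbc1d5 (chr17:51397001-51400000). The runs near App and Adam6b had no base under a peak in any PAM3-stimulated library. With 25HC the first was at 0 in both libraries and the second held 255 and 278 bp.

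Bins gained with 25HC at rest were found again more often after 25HC then PAM3 than after PAM3. In mouse A 48.5% of them were called with 25HC then PAM3 and 35.5% with PAM3, and in mouse B 53.4% and 48.0% (exact two-sided permutation p = 0.333 over the 4 libraries, the smallest possible). Over all resting bins the same shares were 54.4% and 52.5% in mouse A and 58.2% and 61.7% in mouse B. Counted in both mice, 586 of the 1484 gained bins (39.5%) were called in both libraries with 25HC then PAM3 and 404 (27.2%) in both with PAM3. For lost bins the counts were 624 (20%) and 621 (19.9%) of 3126, with 26.7% against 26.1% in mouse A and 33.2% against 41.6% in mouse B. The 25HC effect with and without PAM3 was also set side by side. In 25HC then PAM3 against PAM3, 6.52% of the 94606 bins called in at least 1 of those 4 libraries were gained and 4.70% lost. Of the gained bins, 130 (8.76%) were also gained with 25HC then PAM3 against PAM3, where they made up 2.11% of 6167, and 49 (3.30%) were lost there. Of the lost bins, 146 (4.67%) were lost there as well, 3.29% of 4443, and 112 (3.58%) were gained. These shares do not have the same base as the 6.52% and 4.70%. Of the gained bins 381 (25.7%), and of the lost ones 1306 (41.8%), were called in none of the 4 PAM3-stimulated libraries. Such bins could be neither gained nor lost there.

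**Figure D5:**
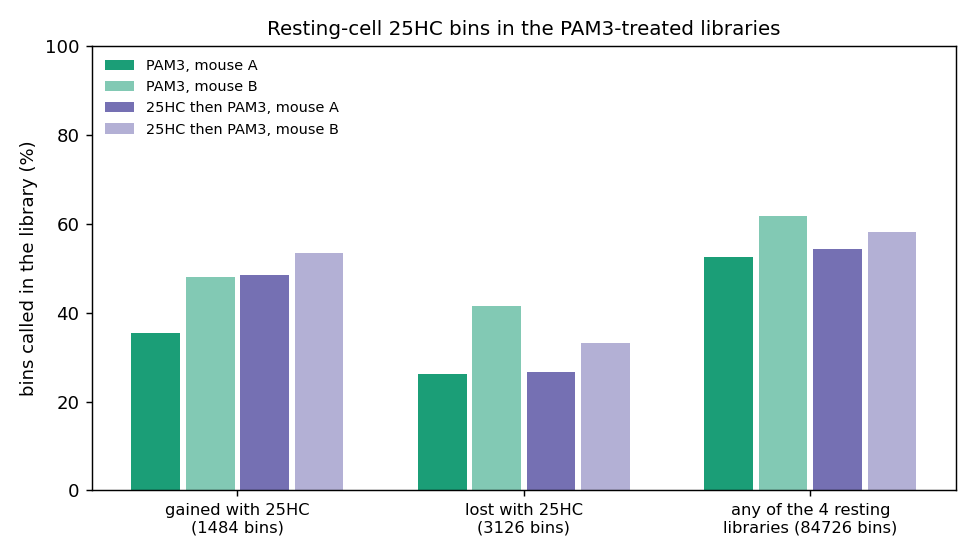
Bars give the percentage of 1 kb bins (y axis) of each set (x axis) that were called in each of the 4 PAM3-stimulated libraries, green for PAM3 and purple for 25HC then PAM3, darker for mouse A. For gained bins the purple bars are the higher ones in each mouse, from 48.5% to 53.4% against 35.5% to 48.0%.

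Across genes, the 25HC differences of the 2 mice shared little. Their Pearson correlation was 0.0603 over 14589 genes, which are not independent replicates and include 10195 (69.9%) whose windows overlap another's, and 54.5% of genes had the same sign in both mice. The correlation between the effect of 25HC at rest and in PAM3-stimulated cells was 0.0479 over the same genes.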

How the data were processed

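Peaks came from 8 acetyl-H4 libraries. Per the submitters' processing notes, GSNAP, MACS2 2.1.0 and GRCm38 (mm10) were used; the sources used here name no thresholds or control library. Each deposited broad peak list holds the authors' positions, a score, a fold enrichment and −log10 p and q values, called per library. Of peaks shared by mouse A and B, the authors' score correlated with a Spearman rho of 0.0848 to 0.168 over the 4 groups and their fold enrichment with 0.103 to 0.199, against 0.706 to 0.861 for peak length; so positions alone were used, and the score and q only in alternatives. No read counts were used, so depth is unknown.

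Peak bases were summed over the windows of 21887 protein-coding genes (RefSeq, GRCm38.p6; gene body with 5 kb on either side). The 14589 genes that averaged 500 bp or more across all 8 libraries were fitted with limma 3.58.1 (R 4.3.3; trend, robust) on log2(called length + 500 bp) minus each library's median, with 4 groups and no block, and p-values were adjusted over all genes. The fit was tested on simulated data. The labels give the same mouse letter across groups; taken as the same animal, it pairs the libraries, although the deviations of same-mouse libraries correlated by only −0.0170 to 0.0304. Promoters were taken from RefSeq for 17492 protein-coding genes. Bins, promoters and totals used Python 3.11.15, numpy 2.4.6, pandas 2.3.3 and scipy 1.17.1.

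Named were the 10 genes per direction that passed or came nearest, same sign in both mice, 26 chosen genes, up to 3 members of each of 16 lists by smallest p (only some are printed, and a few are not reported here), and the 5 longest runs of bins per direction. Members and lists were chosen with earlier results of these data known. Of 372 listed and chosen genes, 368 were in the annotation. Alternatives were the mouse block, fewer libraries, other pseudocounts, filters, windows, bin thresholds and peak sets.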

Additional observations from a re-analysis of the deposited data

How the results depend on the processing

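Counts of genes that rose and fell, 1 and 4 as reported, stayed so without median subtraction, with a pseudocount of 100 bp, without a filter on called length, with the same number of peaks per library by score and, an alternative added after seeing the data, with the same number of the longest peaks. Without median subtraction Myo1h no longer passed and Atxn2l did (adjusted p = 0.0482 in limma). They became 0 and 0 with the replicate block (mouse), which pairs the libraries, and also with only the 4 resting libraries, a pseudocount of 2000 bp, a filter at a mean of 2000 bp, peaks of −log10 q of at least 5, and the same covered length; genes at an unadjusted p under 0.05 then numbered 646, 869, 670, 442, 690 and 655. They became 2 and 4 with 1 kb on either side of the gene, and 4 and 4 with peaks of at least 500 bp (also added after seeing the data); of the 5 genes reported, 4 (not Camkv) and 3 (not Camkv or Myo1h) were among these. Leaving out 1 library gave 0 to 92 genes risen and 0 to 51 fallen; where an arm then holds 1 library, that library is assumed to vary like the other groups. The cause was not tested, except that fewer genes are tested under the stricter filter and fewer libraries in the smaller fit. Bins gained and lost, 1484 and 3126, became 2463 and 5014 with bins called from 100 bp (526 and 1002 of them among those reported), 765 and 1937 from 900 bp, and 454 and 869 where the other group had to be at 0 bp. With peaks of −log10 q of at least 5 they were 2495 and 4539, and with the same covered length 2507 and 2797, so the excess of losses was then much smaller. Leaving out 1 library gave 3830 to 6587 gained and 5784 to 10141 lost, since 1 library calls more bins than 2 that must share them. Of 1256 pairs of a named gene and an alternative, 1142 kept direction and side of the threshold and 43 changed sign, none of them for a gene that passed. The authors' scores and q values hardly agreed between mice for the same peaks, and the alternatives by score, by q and of the same covered length rest on them. As log2 differences these were Mylip −0.57, Atf4 1.19, Ddit3 0.13, Trib3 −0.57, Asns 0.87, Il6 −1.69, Tnf −0.71 and Adgre1 −0.72 with peaks of −log10 q of at least 5 and Mylip −0.043, Trib3 −0.44 and Chac1 0.89 with the same covered length. They were Mylip −0.16, Atf3 0.037, Ddit3 0.067 and Gbp3 0.055 with 1 kb windows, Abcg1 0.036, Lpcat3 0.0064, Asns 0.0031 and Il12a 0.060 with peaks of at least 500 bp and Ddit3 0.038 and Trib3 −0.011 with the same number of peaks. They were Trib3 −0.044 without median subtraction and Chac1 0.0052 with a pseudocount of 2000 bp. Leaving out 1 library turned the sign for 13 genes, with these ranges: Abcg1 −0.069 to 0.041, Mylip −0.14 to 0.27, Lpcat3 −0.50 to 0.36, Scd2 −0.16 to 1.30, Plin2 −0.23 to 0.028 and Atf3 −0.16 to 0.065. The others were Ddit3 −0.25 to 0.19, Trib3 −0.10 to 0.14, Chac1 −0.14 to 0.13, Asns −0.27 to 0.018, Il1b −0.43 to 0.051, Ccl2 −0.0056 to 0.94 and Cd79b −0.19 to 3.03. With depth unknown, a missing peak sets no upper limit on the signal at that place.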

Other observations

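The lists that stand for other states of the cells had no member that passed either. Cell cycle genes had a median log2 difference of 0.03 (12 of 19 positive); Mcm5, a helicase subunit of DNA replication, had 3048 and 3372 bp untreated and 2095 and 1663 bp with 25HC (adjusted p = 0.999968 in limma). Housekeeping genes had a median of 0.04 (11 of 20 positive), and Polr2a, the large subunit of RNA polymerase II, had 3204 and 3389 bp against 4694 and 3935 bp. Dendritic cell markers had a median of −0.11 (5 of 14 positive), and the class II gene H2-Ab1 had 2511 and 2264 bp against 2061 and 1065 bp. Erythroid and megakaryocyte markers had a median of 0.03 (7 of 10 positive).

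Of 20 genes that macrophages are not known to express, 16 had no peak in any of the 4 resting libraries. The window of Sftpc, the lung surfactant protein C gene, was at 0 in both untreated libraries and held 774 and 670 bp with 25HC and between 1109 and 1192 bp in the 4 PAM3-stimulated libraries (adjusted p = 0.354 in limma for 25HC against untreated, 0.652 with the replicate block). That window overlaps those of Bmp1 and Lgi3, and to which gene the peak belongs was not tested.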
